A study of Mus musculus with 11 samples.

Results

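RNA of 10 genes was compared in whole bone of mice with and without depletion of bone marrow (BM) adipocytes. The genes mark hematopoietic stem cells and the progenitors that descend from them, or are needed by these cells. The 10 were Kit, Flt3, Cd34, Procr, Ly6a, Gata2, Meis1, Mecom, Hlf and Myb. They were taken by gene symbol from the 22600 genes of the merged count table, and all 10 were among the 16496 genes that passed a filter on low counts. The comparison was of whole distal tibiae from 4 Control and 7 BMAd-DTA mice of strain C57BL6/SJL, 24 weeks old and fed ad libitum, with 1 mRNA library per mouse. By the study's methods, mice of both genotypes carry an FLPo recombinase driven by Osterix and a Cre that is expressed from Adipoq only after FLPo has acted. Mice with both of these alleles are described as having low circulating adiponectin, and both genotypes carry them. BMAd-DTA mice also carry a ROSA26 allele from which Cre releases diphtheria toxin A, which kills the cell that makes it, whereas Control mice carry no such allele and are labelled BMAd-WT. The Cre is active in BM adipocytes and in a small share of marrow stromal cells, and its recombination is not complete, so that the BMAd-DTA tibia is a model of partial depletion.

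Blood formation in adult mice takes place in the marrow of bone, where rare stem cells give rise to multipotent progenitors and these to myeloid, lymphoid, erythroid and megakaryocytic lineages. Stem and progenitor cells receive survival and growth signals through the receptor tyrosine kinases Kit and Flt3, carry CD34, EPCR (Procr) and Sca-1 (Ly6a) on their surface, and depend on transcription factors such as GATA2, MEIS1, EVI1 (Mecom), HLF and MYB. Marrow stromal cells and endothelium supply ligands such as KITLG and CXCL12, and marrow adipocytes are part of the same space. The genes are not exclusive to stem cells, since mast cells also use Kit and Gata2, dendritic cells use Flt3, and endothelium and fibroblasts use Cd34, Procr, Ly6a or Mecom.

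No difference between genotypes was detected in any of the 10 genes. Genotypes were compared by the quasi-likelihood test of edgeR, and p values were adjusted across the 16496 genes by the Benjamini-Hochberg method with a threshold of 0.05. Of the 10 genes, 0 passed, where the test called 0.0788% of all genes (0.00606% lower and 0.0727% higher in BMAd-DTA mice). At an unadjusted p under 0.05 there were also 0, against 16.4% of all genes. DESeq2 called 0 of the 10 and gave 0 with an unadjusted p under 0.05, where it called 5.42% of the genes it tested (2.64% lower and 2.78% higher). In each of the 10 genes the range of the BMAd-DTA libraries overlapped that of the controls, while the groups did not overlap for 2.81% of all genes (1.04% lower and 1.78% higher). The fitted level was lower in BMAd-DTA mice for 6 genes and higher for 4, against 49.6% of all genes fitted lower. The median log2 fold change of the 10 was -0.02, and that of all tested genes was 0.00182. With 1 library left out, the number fitted lower was between 3 (without BMAd-DTA replicate 4) and 6, and the median was between -0.07 (without Control replicate 2) and 0.02 (without BMAd-DTA replicate 3). Because bone was sequenced in bulk, fewer cells of a type and less RNA per cell cannot be told apart in any of these values. They are RNA levels of whole bone and do not count stem or progenitor cells. By flow cytometry of marrow flushed from bone, the paper reports fewer such cells in BMAd-DTA mice, stem cells and multipotent progenitors among them. It also reports fewer nucleated marrow cells, and impaired colony growth of most progenitor types in culture. The levels here are relative to all RNA counted in the distal tibia, so a loss shared by all cells would not show.

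Replicate numbers only name the libraries within a group, in the order in which the samples are listed, and do not pair mice. The library totals lay between 16969529 and 18637663 counts. Levels are given as CPM, counts scaled to a common library total after TMM normalization. Control replicate 1 stood apart from the other controls, with a summed level of 2850 CPM over 10 osteoblast markers against 11339 to 12963 CPM in the other controls, and Control replicate 3 and BMAd-DTA replicate 6 held the most skeletal muscle RNA. Without Control replicate 1, and without both muscle-rich libraries, edgeR still called 0 of the 10 genes.

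**Figure D1:**
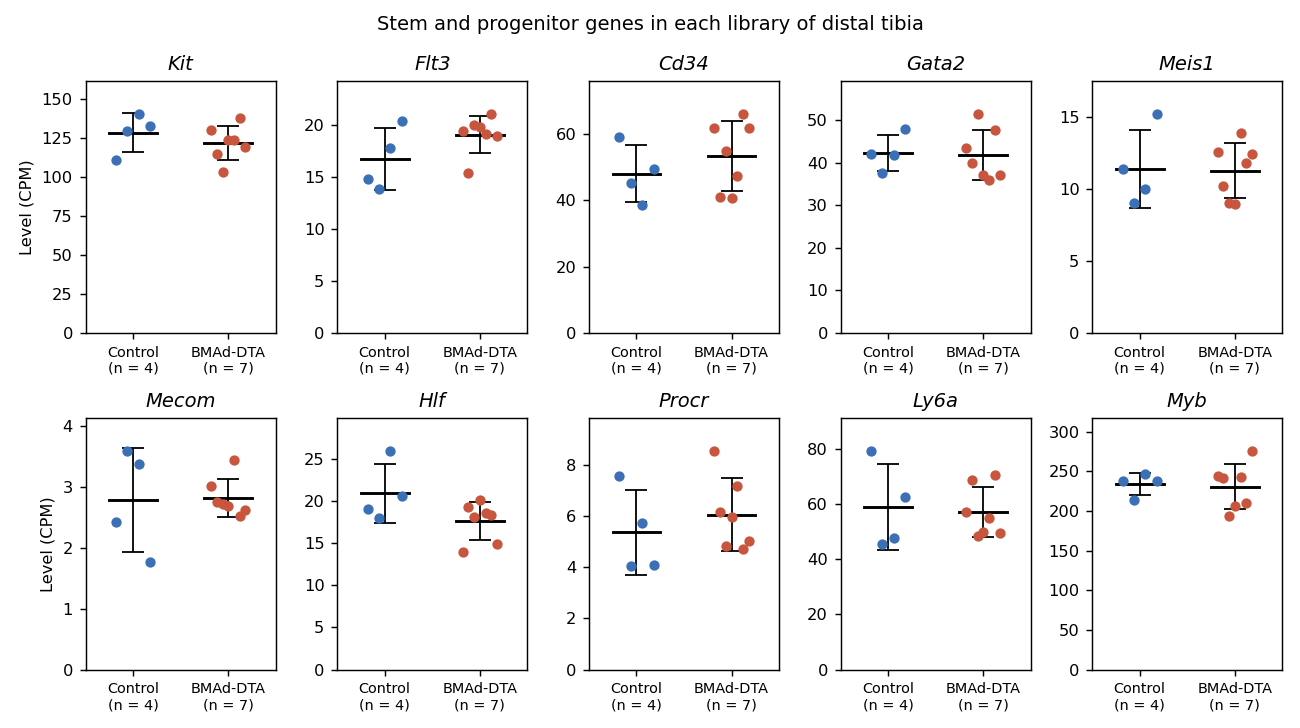
Level of each of the 10 genes in CPM (vertical axis, linear, starting at 0) in the 4 Control (blue) and 7 BMAd-DTA (red) libraries. Points are single mice, the long bar is the group mean and the whiskers are 1 SD; in all 10 panels the ranges of the genotypes overlap.

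The receptors Kit and Flt3 bind stem cell factor and FLT3 ligand. Kit (chromosome 5, 75574916 to 75656722, plus strand; all positions are GRCm38, from the GENCODE annotation) stood at 111, 130, 141 and 133 CPM in Control replicates 1 to 4, and at 103 to 138 CPM with a median of 124 CPM in BMAd-DTA mice. Only 1 BMAd-DTA library lay below every control and none lay above. The mean was 129 ± 12.7 CPM (SD, n = 4) in controls and 122 ± 11.1 CPM (SD, n = 7) in BMAd-DTA mice, a log2 fold change of -0.08 (SE 0.08; edgeR adjusted p = 0.708). The 95% interval of the difference ran from -16.1% to 7.38%, which makes Kit one of the most tightly bounded of the 10 genes. The log2 fold change was -0.14 without Control replicate 1, the control with the lowest level, and -0.03 without Control replicate 3.

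Flt3 (chromosome 5, 147330741 to 147400489, minus strand), which is used from the multipotent progenitor stage onward and by dendritic cells, was at 14.8, 13.8, 17.8 and 20.4 CPM in the controls and at 15.4 to 21.1 CPM, median 19.4 CPM, in BMAd-DTA mice. A single BMAd-DTA library was above every control, and the lowest of them, replicate 2, was apart from the other 6. Flt3 had the highest fold change of the 10, with a log2 fold change of 0.19 (SE 0.12; edgeR adjusted p = 0.445) and an interval from -4.09% to 35.7%. It came to an unadjusted p of 0.021 once Control replicate 4 was left out (log2 fold change 0.30), with an edgeR adjusted p of 0.218.

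Cd34 (chromosome 1, 194938819 to 194961279, plus strand) encodes a sialomucin carried by progenitors and by endothelium. The controls were at 59.0, 45.2, 38.5 and 49.4 CPM, and the BMAd-DTA libraries were at 40.5 to 66.0 CPM with a median of 54.8 CPM. In 3 of 7 BMAd-DTA libraries Cd34 exceeded every control. The difference was still within the spread between mice, with a log2 fold change of 0.15 (SE 0.15; edgeR adjusted p = 0.686) and an interval from -11.7% to 39.4%. It was 0.26 without Control replicate 1, the control with the highest level, and 0.06 without Control replicate 3.

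Procr (chromosome 2, 155751117 to 155755471, plus strand), the endothelial protein C receptor and a marker of long-term stem cells, was among the lowest of the 10 in CPM, at 69 to 145 counts per library. Its levels were 7.6, 4.1, 5.7 and 4.1 CPM in controls and 4.7 to 8.5 CPM, median 6.0 CPM, in BMAd-DTA mice. One BMAd-DTA library was above every control and the other 6 were within their range. The log2 fold change was 0.17 (SE 0.22; edgeR adjusted p = 0.753), and the interval of -18.5% to 56.1% was the widest of the 10 genes. Without Control replicate 1 the log2 fold change was 0.38, and without Control replicate 2 it was 0.06, both short of the threshold.

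Ly6a (chromosome 15, 74994877 to 74998031, minus strand) encodes Sca-1, a surface antigen of mouse stem cells that endothelium and mesenchymal progenitors also carry. It belongs to a cluster of closely related Ly6 genes, and read pairs that map to several places were not counted, so its level is less certain than the others. The controls were at 79.3, 45.6, 47.7 and 62.3 CPM, and the BMAd-DTA mice lay entirely inside that range, at 48.3 to 70.3 CPM with a median of 54.9 CPM. The log2 fold change was -0.05 (SE 0.15; edgeR adjusted p = 0.92), with an interval from -23.1% to 22.1%. Its direction rested on Control replicate 1, which had the highest level: without it the log2 fold change was 0.13.

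Among the transcription factors, Myb and Gata2 were the best measured. Myb (chromosome 10, 21124935 to 21160984, minus strand), which drives the expansion of progenitors in several lineages, had 3411 to 5183 counts per library, the most of the 10. It stood at 238, 214, 247 and 238 CPM in controls and at 194 to 276 CPM, median 242 CPM, in BMAd-DTA mice. The BMAd-DTA libraries reached past the controls on both sides, with 3 of 7 below every control and 1 above. The log2 fold change was -0.02 (SE 0.09; edgeR adjusted p = 0.941) and the interval ran from -14.0% to 13.1%.

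Gata2 (chromosome 6, 88193891 to 88207032, plus strand), needed for the emergence and survival of stem cells and also used by mast cells and megakaryocyte progenitors, was at 42.0, 37.7, 41.8 and 47.9 CPM in controls and at 35.9 to 51.5 CPM, median 39.9 CPM, in BMAd-DTA mice. As with Myb, 3 BMAd-DTA libraries lay below every control and 1 above. The log2 fold change was -0.02 (SE 0.11; edgeR adjusted p = 0.96), with an interval from -15.9% to 16.0%.

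Hlf (chromosome 11, 90336536 to 90390895, minus strand), a leucine zipper factor that is high in quiescent stem cells, was the gene of the 10 with the smallest p. It was at 19.1, 17.96, 25.9 and 20.5 CPM in controls and at 13.9 to 20.1 CPM, median 18.4 CPM, in BMAd-DTA mice. In 2 BMAd-DTA libraries, replicates 1 and 7, Hlf was below every control, and the highest control was replicate 3. The mean was 20.9 ± 3.54 CPM (SD, n = 4) in controls and 17.6 ± 2.30 CPM (SD, n = 7) in BMAd-DTA mice, a log2 fold change of -0.25 (SE 0.12; unadjusted p = 0.0694, edgeR adjusted p = 0.345) with an interval from -29.9% to 1.57%. Without Control replicate 3, which also held the most muscle RNA, the log2 fold change was -0.12. Leaving out Control replicate 2 or BMAd-DTA replicate 4 gave an unadjusted p of 0.0373 or 0.0494, with edgeR adjusted p values of 0.337 and 0.335.

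Meis1 (chromosome 11, 18879817 to 19018985, minus strand), a homeodomain factor that acts with HOX and PBX proteins in stem cells, was at 11.4, 9.1, 10.05 and 15.2 CPM in controls and at 9.0 to 13.9 CPM, median 11.8 CPM, in BMAd-DTA mice. Only 1 BMAd-DTA library was outside the control range, just below it. The log2 fold change was -0.02 (SE 0.16; edgeR adjusted p = 0.969), with an interval from -22.7% to 25.6%, and it was 0.15 without Control replicate 4.

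Mecom (chromosome 3, 29951296 to 30548008, minus strand), the locus of EVI1, was the least abundant of the 10, at 34 to 61 counts per library. Controls were at 2.4, 3.6, 3.4 and 1.8 CPM, and all 7 BMAd-DTA libraries fell within that range, at 2.5 to 3.4 CPM with a median of 2.7 CPM. The log2 fold change was 0.02 (SE 0.21; edgeR adjusted p = 0.9754). The interval of -25.6% to 38.0% did not bound the difference closely.

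**Figure D2:**
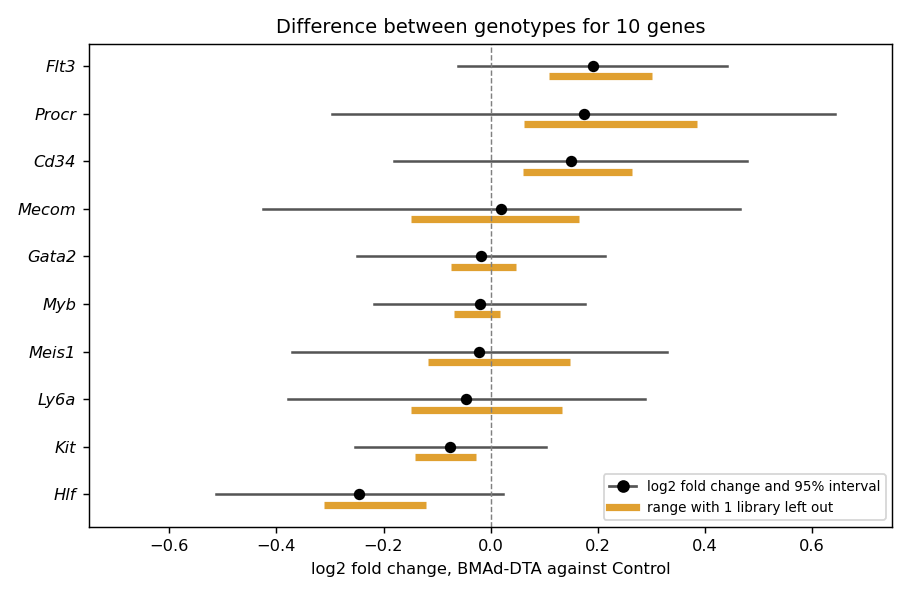
Log2 fold change of each gene in BMAd-DTA against Control mice (horizontal axis). Points are the edgeR estimates, thin lines their 95% intervals and orange bars the range of estimates when 1 library at a time was left out; every thin line crosses 0, from -0.25 for Hlf at the bottom to 0.19 for Flt3 at the top.

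For Kit, Myb and Gata2 the intervals stayed within 16.1% of no difference in either direction, whereas for Procr, Mecom, Cd34 and Flt3 an increase of more than 35% remained inside them. Levels could be compared between genes only per length, as CPM per kilobase of exon. On that scale Ly6a was highest, with a mean of 47.8 CPM per kb over the 11 libraries, followed by Myb at 26.0 and Kit at 14.0 CPM per kb. These 3 kept that order in 11 of 11 libraries and their ranges did not overlap. Gata2 at 7.78 and Cd34 at 7.05 CPM per kb overlapped, with Gata2 the higher in 7 of 11 libraries. Flt3, Procr and Hlf, at 2.95, 2.85 and 2.81 CPM per kb, could not be ordered beyond their spread. Meis1 at 1.08 and Mecom at 0.226 CPM per kb were the lowest in every library. The summed level of the 10 genes was 521 to 593 CPM in controls and 506 to 598 CPM in BMAd-DTA mice.

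The genes did not move as 1 group from mouse to mouse. Over the 11 libraries of both genotypes, the 45 pairs of genes had a median Pearson r of 0.06 in log2 CPM, 22 pairs had an r below 0, and 1 pair had an r above 0.5. That pair was Meis1 and Myb (Pearson r = 0.58, permutation p = 0.0635, adjusted over 45 pairs 0.915; Spearman rho = 0.53, permutation p = 0.102, adjusted 0.812), and r was 0.58 again without the 2 libraries farthest from the median of Meis1. The lowest r was that of Cd34 and Hlf (Pearson r = -0.70, permutation p = 0.00971, adjusted 0.437; Spearman rho = -0.66, permutation p = 0.03, adjusted 0.812). It was -0.70 without the 2 libraries farthest from the median of Cd34 and -0.70 within the 7 BMAd-DTA libraries. No pair passed the adjustment, and the 4 controls were too few for a value of their own.

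**Figure D3:**
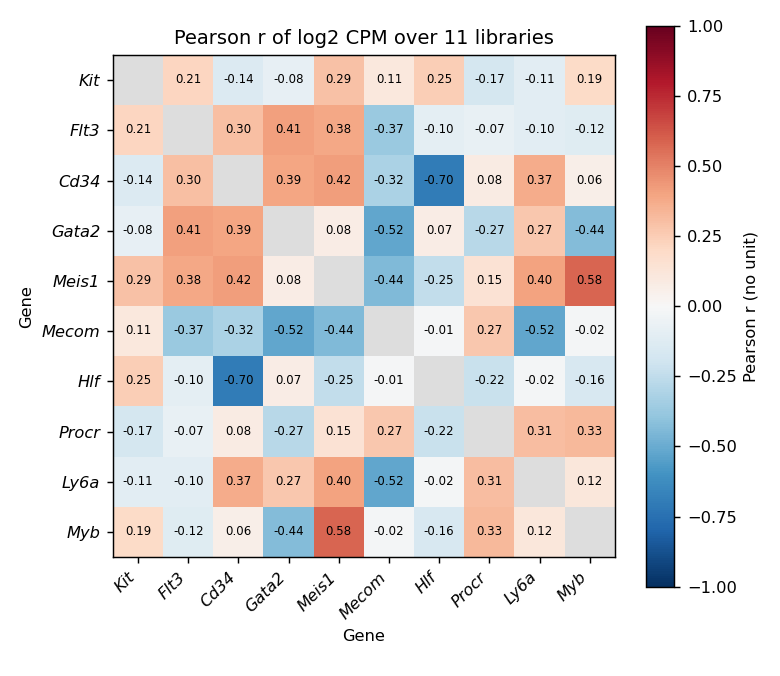
Pearson r of log2 CPM (no unit, colour scale from -1 in blue to 1 in red) for the 45 pairs of the 10 genes over the 11 libraries. Meis1 with Myb is the darkest red cell at 0.58 and Cd34 with Hlf the darkest blue cell at -0.70, and most cells are pale.

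Each gene was also compared with 12972 genes (12973 for Mecom) that averaged 50 counts or more, to name the gene whose log2 CPM was most like it over the 11 libraries. These values are the highest of many and carry no test. Ly6a was most like Ly6e (Pearson r = 0.95, Spearman rho = 0.96), which encodes another member of the Ly6 family. Hlf was most like Stat5a (r = 0.91, rho = 0.68), a transcription factor activated by cytokine receptors, and this r was 0.64 without the 2 libraries farthest from the median. The most alike gene was Igkv2-112 for Flt3 (r = 0.94, rho = 0.71), an immunoglobulin kappa variable gene, and Siae for Cd34 (r = 0.91, rho = 0.93), a sialic acid esterase. Acad8 for Kit (r = 0.88), Eef1akmt1 for Gata2 (r = 0.90), Nomo1 for Meis1 (r = 0.92), Sdhaf4 for Mecom (r = 0.94), Arhgef10 for Procr (r = 0.85) and Zmym2 for Myb (r = 0.85) completed the list, so that no gene was named for 2 of the 10. Without the 2 libraries farthest from the median, r was 0.71 for Procr, 0.77 for Myb and 0.82 for Mecom. Hlf aside, it was between 0.84 (Flt3) and 0.94 (Kit) for the other genes.

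Promoter sequence from RefSeq (GRCm38.p6) was matched for 9 of the 10 genes, and the 250 bases before each start were searched on both strands for letters that transcription factors of these cells are known to prefer. The letters AGGAAG, which ETS factors bind, were found before Kit and Cd34, and 29.5% of 32851 mouse promoters hold them. Those of MYB (AACTG, in 39.1% of promoters) were found before Procr alone, and those of MEIS factors (TGACAG, 15.9%) before 1 of 2 starts of Mecom. The letters of GATA factors (AGATAA, 9.99%) and of HLF (TTACNTA, 6.57%) were in none of the 9. The 2 promoters with the ETS letters are printed because they are the 2 of the 9 genes at which these letters were found. They are shown up to the first base of the annotated gene, with the matched letters in capitals, which for Cd34 read on the opposite strand:
Kit, chr5:75574737-75574915, plus strand: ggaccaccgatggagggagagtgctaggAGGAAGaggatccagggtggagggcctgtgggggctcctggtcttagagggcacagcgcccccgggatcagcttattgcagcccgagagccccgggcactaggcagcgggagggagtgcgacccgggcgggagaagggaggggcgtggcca
Cd34, chr1:194938571-194938818, plus strand: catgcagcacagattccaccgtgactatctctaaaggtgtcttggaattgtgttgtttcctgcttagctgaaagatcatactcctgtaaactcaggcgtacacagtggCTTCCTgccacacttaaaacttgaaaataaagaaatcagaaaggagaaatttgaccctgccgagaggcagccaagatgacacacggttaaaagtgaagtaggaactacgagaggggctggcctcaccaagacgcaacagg

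Further genes of the stem and progenitor programme were counted in the same fit, as lists described by counts and medians without a test of the list. Of all tested genes, 8.53% were lower and 7.89% higher in BMAd-DTA mice at an unadjusted p under 0.05. Of 20 other stem cell transcription factors, 4 were lower (20 tested; Tal1, Lmo2, Gfi1b and Zfpm1) and 0 higher at that level, with a median log2 fold change of -0.09. Tal1, which stem cells share with erythroid and megakaryocytic cells, was at 179 to 300 CPM in controls and 144 to 202 CPM in BMAd-DTA mice (log2 fold change -0.50, SE 0.13, edgeR adjusted p = 0.086), and Zfpm1, the GATA1 cofactor, came to -0.49 (edgeR adjusted p = 0.0985). At the other end, Bmi1 had a log2 fold change of 0.20 and Prdm16 of 0.17. With edgeR 0 of the 20 passed the adjusted threshold, and DESeq2 called 3 of them lower. The count at an unadjusted p under 0.05 was 3 without Control replicate 1, where the median was -0.07. It was 6 without Control replicate 3 and 7 without both muscle-rich libraries.

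Of 17 other surface and quiescence genes, 1 was lower at an unadjusted p under 0.05, Ctnnal1 (log2 fold change -0.46, edgeR adjusted p = 0.0763), and DESeq2 called 1. The count was 3 without Control replicate 3 and 2 without Control replicate 4 or BMAd-DTA replicate 4. Muc13 was at -0.36, and Cdkn1c, a cell cycle inhibitor of quiescent stem cells, had the highest value at 0.20, ahead of Cd9 at 0.11. The median of the list was -0.11, but it ranged from -0.16 without Control replicate 2 to -0.01 without Control replicate 4, and was -0.04, -0.06 and -0.07 without BMAd-DTA replicates 7, 4 and 3.

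Of 19 genes of Kit and Flt3 signalling, 5 were lower at an unadjusted p under 0.05 and 0 were higher, with a median log2 fold change of -0.08. Apart from the ligands Kitl and Flt3l, all genes of this list act downstream of the receptors. The 5 were Stat5a (-0.32), Jak2 (-0.22), Ptpn11 (-0.20), Pik3r1 (-0.20) and Stat5b (-0.14). None passed the adjusted threshold of edgeR or DESeq2. The count was 3 without Control replicate 2 or BMAd-DTA replicate 3, and without Control replicate 3 it was 2. In that last fit 1 gene was higher at an unadjusted p under 0.05, and edgeR called 1 gene lower at the adjusted threshold. With library sizes set from the pan-leukocyte genes the count was 2, and without Control replicate 1 the median was -0.04. Socs2 (0.27) and Sh2b3 (0.10), which restrain cytokine signalling, had the highest fold changes. Of the ligands themselves, Kitl was at 66.8 to 115 CPM in controls and 65.0 to 96.3 CPM in BMAd-DTA mice (log2 fold change -0.19, edgeR adjusted p = 0.546), and Flt3l was at 14.96 to 19.7 and 15.6 to 21.0 CPM (0.04, adjusted p = 0.887).

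The lineages to which these progenitors give rise did not show 1 direction. All 11 genes of erythroid and megakaryocyte progenitors were fitted lower, 7 of them at an unadjusted p under 0.05, with a median log2 fold change of -0.46. edgeR called 0 of them at the adjusted threshold, and DESeq2 called 5. The 7 were Gata1 (-0.46, edgeR adjusted p = 0.144), Epor, Zfpm1, Tfrc, Rhd, Car1 (-0.53) and Car2 (-0.53), all used in the red cell lineage. Itga2b, an integrin of megakaryocytes, was also fitted lower, at -0.14. Without Control replicate 1, which had the highest level of Gata1, 5 were lower at an unadjusted p under 0.05 and the median was -0.29. Without Control replicate 4, 9 were fitted lower and edgeR called 1 of them. The 10 proliferation genes were likewise all lower at an unadjusted p under 0.05 (median -0.33, Mki67 -0.56 and Pcna -0.19), 0 of them past the adjusted threshold of edgeR, and DESeq2 called 8. Without Control replicate 1, 8 proliferation genes were lower at an unadjusted p under 0.05, with a median of -0.22. Without Control replicate 3 edgeR called 1 of the proliferation genes. Their part in the erythroid values was not tested.

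Of 13 myeloid progenitor genes, 0 were lower or higher at an unadjusted p under 0.05 and DESeq2 called 0, with a median of -0.02 that ranged from -0.04 to 0.06 with 1 library left out. Csf2rb (-0.15) and Cebpa (-0.12) were at the low end, and Mpo (0.10), the peroxidase of early granulocytes, and Csf1r (0.12) at the high end. Of 11 lymphoid progenitor genes, 0 had an unadjusted p under 0.05 and DESeq2 called 0, although 9 were fitted higher, led by Pax5 (0.35) and Igll1 (0.33) of the B lineage, with Tcf3 (-0.11) and Notch1 (-0.01) lowest. Their median of 0.21 fell to 0.03 without Control replicate 1, to 0.06 without Control replicate 2 and to 0.10 without BMAd-DTA replicate 2, and it was 0.42 without Control replicate 4 and 0.32 without BMAd-DTA replicate 3.

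**Figure D4:**
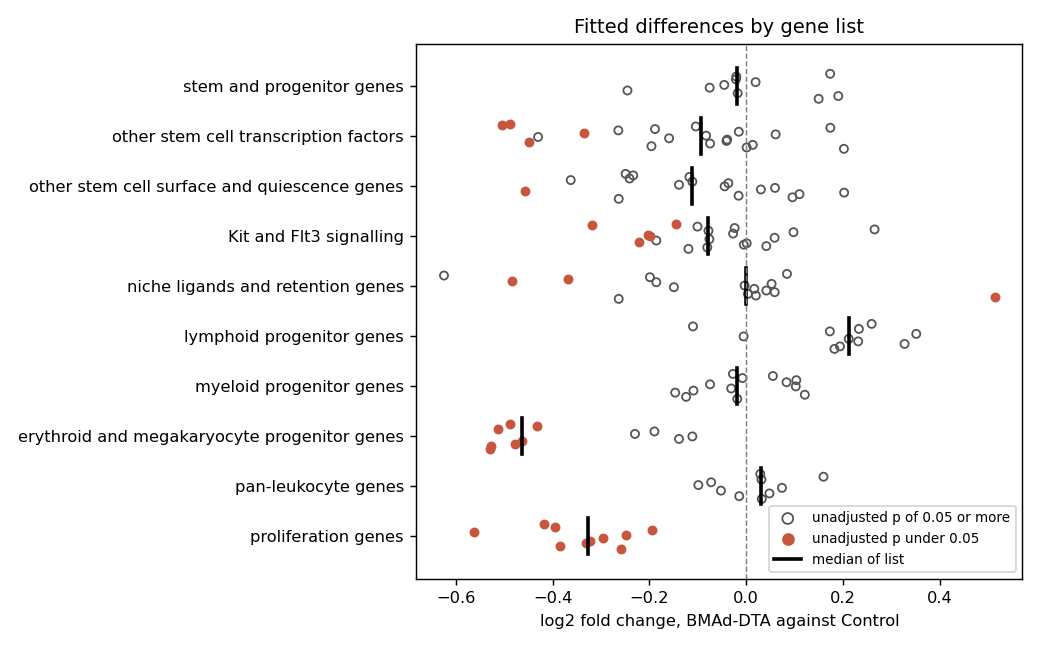
Log2 fold change in BMAd-DTA against Control mice (horizontal axis) of the genes in each list, with filled points for an unadjusted edgeR p under 0.05 and a black bar at the list median. The 10 stem and progenitor genes in the top row lie between -0.25 and 0.19 without a filled point, while the erythroid and proliferation rows lie to the left of 0.

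Of 16 niche ligands and retention genes, 2 were lower (Lepr and Sele) and 1 higher at an unadjusted p under 0.05, with a median of 0.000118. Csf1, a ligand of macrophage and osteoclast precursors, was at 81.0 to 111 CPM in controls and 111 to 163 CPM in BMAd-DTA mice, without overlap (log2 fold change 0.51, edgeR adjusted p = 0.072), and it was the 1 gene of the list called by DESeq2. Thpo, which encodes thrombopoietin, was the lowest at -0.62 and was hardly detected, at 0.783 ± 0.275 CPM (SD, n = 4) in controls and 0.504 ± 0.138 CPM (SD, n = 7) in BMAd-DTA mice. Lepr, the receptor that marks the stromal cells of the niche, was at -0.48 (adjusted p = 0.182). Cxcl12, which retains stem cells in the marrow, had a log2 fold change of 0.02 and Vcam1 of 0.08. Without Control replicate 3, 4 of the 16 were lower at an unadjusted p under 0.05 and edgeR called 1 higher, and without Control replicate 2, 1 was lower. The median near 0 was not stable, since it was -0.11 without Control replicate 1 (10 of 16 fitted lower), -0.06 without BMAd-DTA replicate 5 (11 of 16) and -0.05 without Control replicate 4 (10 of 16).

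Markers of the cells that share these genes were read in the same way. The summed level of 10 pan-leukocyte genes was 5872 to 6010 CPM in controls and 5156 to 6349 CPM in BMAd-DTA mice, with 0 at an unadjusted p under 0.05 and a median log2 fold change of 0.03. For 11 endothelial markers the sums were 980 to 1153 and 781 to 1139 CPM (0 at an unadjusted p under 0.05, median -0.10). For 7 mast cell markers they were 135 to 161 and 105 to 182 CPM (0 of 6 tested), with Cma1, Tpsb2 and Mcpt4 below 1 CPM on average in both groups. For 9 dendritic cell markers, Flt3 among them, they were 127 to 178 and 131 to 181 CPM (0 of 8 tested), with Xcr1 near 0. DESeq2 called 0 genes of these 4 lists.

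Markers of other tissue in the bone stood further apart. Of 10 adipocyte markers, 7 were lower at an unadjusted p under 0.05 (median -1.10), and Retn passed the adjusted threshold (log2 fold change -1.38, edgeR adjusted p = 0.0205). All 10 osteoblast markers were higher at an unadjusted p under 0.05 (median 1.14), and Alpl passed (1.16, edgeR adjusted p = 0.0326). With either Control replicate 1 or 2 left out, or either BMAd-DTA replicate 1 or 6, edgeR called 0 genes of both lists, and with BMAd-DTA replicate 4 left out it called 0 osteoblast markers. Without Control replicate 3 it called 3 osteoblast markers, and without Control replicate 4 it called 2. DESeq2 called 7 of 10 osteoblast, 3 of 10 adipocyte, 2 of 9 fibroblast and 1 of 8 T cell markers, against 1, 1, 0 and 0 by edgeR. Of 9 fibroblast markers, 5 were higher and 1 lower (median 0.36; 3 higher without Control replicate 2 or 4, and 0 lower without Control replicate 3), of 8 T cell markers 5 were higher (median 0.43; 2 without Control replicate 1 or 4, and 3 without Control replicate 2 or BMAd-DTA replicate 1, 2 or 3), and of 10 muscle markers 0 had an unadjusted p under 0.05, at summed levels of 16.1 to 1321 CPM in controls and 16.9 to 1042 CPM in BMAd-DTA mice. For T cells the paper reports a decrease in BMAd-DTA mice by flow cytometry of marrow, which counts cells and not RNA of whole bone. The part of the cells marked by these lists in the levels of the 10 genes was not tested. With the muscle score as a covariate, edgeR again called 0 of the 10.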

How the data were processed

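RNA of 11 whole distal tibiae was sequenced as stranded paired-end libraries. The authors checked reads with FastQC 0.11.9, aligned them to mm10 with STAR and deposited raw, unnormalized counts of each gene, library by library and merged in 1 table. Every row of the merged table equalled the read-strand counts of the libraries, and that strand held 95.9% to 96.3% of stranded counts. Counts on the opposite strand of the 10 genes numbered 0 to 24 per library. Read pairs mapped to several places are not in the counts. The authors' own test was DESeq2.

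Groups were taken from the labels. The test was run with edgeR 4.0.16 in R 4.3.3 (low counts removed by filterByExpr, TMM scaling, glmQLFit, glmQLFTest, two-sided, genotype as the only term, Benjamini-Hochberg adjustment over 16496 genes, threshold 0.05). SE was the absolute log2 fold change over the root of the F statistic, and 95% intervals used the t distribution. The common biological coefficient of variation was 0.202. CPM were computed on TMM-scaled totals, log2 CPM used a prior count of 2, and levels per kb were computed with the exon length of GENCODE M21 on GRCm38, which held 99.9% of the identifiers. Libraries of the same genotype differed by more than sampling noise in every pair (smallest chi-square per gene 21.8). Each library is from 1 mouse. Correlations were tested with 100000 permutations.

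The alternatives were DESeq2 1.42.0, limma-voom (limma 3.58.1), a robust fit, 3 other scalings, 2 other filters, both per-library tables, a covariate (the muscle score, or 1 surrogate variable from sva 3.50.0), each library left out in turn, and, chosen after seeing the data, both muscle-rich libraries left out together. Steps were tested on simulated data in which 200 genes were changed by a log2 fold change of 1. Of these, 62.5% were recovered, with 8 false calls. The 10 genes and all lists were chosen with earlier results of these data known. The text names the 10 genes, the 2 highest and 2 lowest genes of the lists of progenitor, signalling and niche genes, genes past the adjusted threshold, and the most alike gene of each member; further genes, such as those with an unadjusted p under 0.05, were named after their values were seen. Klf1, Robo4, Egfl7 and Mrgprb2 were not analysed here. One further gene that the naming rule covers is not reported here.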

Additional observations from a re-analysis of the deposited data

Results flagged for a closer look

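The level of Flt3 in BMAd-DTA replicate 2 was 15.4 CPM, apart from the other 6 BMAd-DTA libraries, of which the nearest was at 18.9 CPM. The gap was 0.622 of the range of the group, past Dixon's limit for 7 samples. It was the only such value among 20 groups of values looked at (10 genes in 2 genotypes), and chance gives about 1 in 20. Without this library the log2 fold change of Flt3 had an unadjusted p of 0.0508 and an edgeR adjusted p of 0.338.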

How the results depend on the processing

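Under 24 alternatives, of which 11 left out 1 library, 0 of the 10 genes passed the adjusted threshold in either direction, and the smallest adjusted p was 0.218 (edgeR, Flt3 without Control replicate 4). The number lower at an unadjusted p under 0.05 was 0 to 1 with 1 library left out (Hlf). With 1 library left out, edgeR called 0 to 292 of all genes, and DESeq2 called 845 with every library kept. Directions near 0 were not stable with 1 library left out: the log2 fold change ranged from -0.074 to 0.047 for Gata2, -0.12 to 0.15 for Meis1, -0.15 to 0.16 for Mecom, -0.15 to 0.13 for Ly6a and -0.069 to 0.018 for Myb. It was also -0.051 for Mecom with unstranded counts and 0.033 for Myb without both muscle-rich libraries. The cause was not tested. Kit, Flt3, Cd34, Hlf and Procr kept their direction in every alternative. The value of all 5 moved by more than 1.5 times with 1 library left out, and for Cd34 it was 0.00352 without both muscle-rich libraries. Among the 10 genes, counting noise was largest for Mecom (34 to 61 counts) and Procr (69 to 145 counts). Its coefficient of variation was 0.142 for Mecom and 0.0988 for Procr, below their biological coefficients of variation of 0.215 and 0.246. No paired analysis was possible because the labels give the mice no replicate numbers, and the numbers used here were assigned in the order in which the samples are listed.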

Other observations

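Gata1 and Gata2 are used in succession along the erythroid path, and their ratio within a library was looked at after their levels had been seen, so it carries no test. Gata1 divided by Gata2, in CPM, was 4.70, 3.69, 2.80 and 2.29 in Control replicates 1 to 4. In BMAd-DTA mice it was 1.85 to 3.32 with a median of 2.29. In 3 of 7 BMAd-DTA libraries the ratio was below every control, and the groups overlapped.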
